A study of Mus musculus with 302 samples.

Results

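Srebf1 and 6 genes of fat synthesis around it, Fasn, Acly, Scd1, Elovl6, Thrsp and Pklr, were taken as all probes that carry one of these names. Each gene had 1 named probe, which makes 7 of the 23562 probes on the array and 7 of the 10838 genes that could be named. The array's annotation table lacks 9859 of the probes, so these genes may have further probes without a name. The livers came from 302 F2 mice of an intercross of C57BL/6J with C3H/HeJ, made in both directions, and each liver was hybridised to its own 2-colour array. Mice ate chow with 4% fat up to the age of 8 weeks, then 12 weeks of a Western diet holding 42% fat and 0.15% cholesterol, and were killed at 20 weeks after 12 h without food. On every array Cy3 carried the RNA of 1 mouse and Cy5 a pool in which all mice have equal shares. All mice thus share cross, diet, age and fast, and no sex, genotype, direction of cross or trait is given for any of them, so the design holds 1 group and the comparisons below are between genes across mice.

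Each value is a log ratio, read as log10 of mouse over pool, so that 0 is the level of the pool and 2 a 100-fold ratio to it. Neither base nor direction is stated in the sources used here. The base is likely rather than certain. The values end at -2 and 2, and Eif2s3y, a gene on the Y chromosome, had a median of 0.195 in the 160 mice above -0.8; a pool with equal shares of all 302 would give 0.276 in log10, 0.916 in log2 and 0.635 in natural logarithms. In the other 142 mice its median was -1.73. With the direction turned, these would lie 53.8-fold above the pool in log10, 3.32-fold in log2 and 5.65-fold in natural logarithms, whereas a gene made only by them could lie at most 2.13-fold above a pool with equal shares, so the values were read as mouse over pool. A correlation between genes is the same in any base and in either direction. A ratio to a liver pool holds no absolute level, so levels are not compared between genes and the tissue cannot be checked from the presence of hepatocyte RNA.

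Array pairs correlated between -0.508 and 0.771 over all probes, and 879 of 45451 pairs lay under -0.3. The dye orientation is the same throughout and the direction was kept. The SD over the probes of an array ran from 0.0697 to 0.258 with a median of 0.0975, so some arrays spread much wider than others. The mice fell into 4 blocks, by Eif2s3y below or above -0.8 (142 and 160 mice, with no mouse between -0.968 and -0.437) and by the number in the mouse's label up to 212 or above (159 and 143 mice). Correlations were computed after each gene had been centred on the mean of its block, and no gene was compared between the mice below and above the Eif2s3y limit. Within blocks, mice with neighbouring numbers were alike in some genes: a smooth trend of the number within each range (natural splines, added after seeing the data) held 28.6% of the variance of Thrsp, more than in 96.0% of all probes. It held between 3.36% and 10.2% of that of the other 6 genes, against a median of 7.78% over all probes. Tests that take mice as independent give p-values that are too small where such runs exist, and for a part of the results the values with the trend as a covariate are given too.

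In liver, the transcription factor SREBP-1c, a product of Srebf1, is made in response to insulin and liver X receptors, is released from the endoplasmic reticulum by proteolysis under the control of SCAP and the INSIG proteins, and switches on the genes that turn sugar into fat. Pyruvate kinase (Pklr) closes glycolysis, ATP citrate lyase (Acly) makes cytosolic acetyl-CoA from citrate, fatty acid synthase (Fasn) builds palmitate from it, and Elovl6 and Scd1 lengthen and desaturate the product. Thrsp encodes Spot 14, a small protein that follows thyroid hormone, carbohydrate feeding and fat synthesis. Fasting lowers this programme in mouse liver, and the mice here were fasted.

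RefSeq promoter windows, from 250 bases before to 50 after a transcription start on build GRCm38.p6, were held for 6 of the 7 genes, in 9 windows. They were searched on both strands for the CCAAT box (CCAAT, where the factor NF-Y binds), the GC box (GGGCGG, bound by Sp1), the E-box CACGTG, the sterol regulatory element TCACNCCAC, and the direct repeat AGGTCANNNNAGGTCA of liver X receptors. Printed here are 5 windows in which a match was found, 1 for each gene, with the matches in capitals, since NF-Y and Sp1 are known to act beside SREBP on such promoters. All read 5′ to 3′ along the gene: Srebf1 (chr11:60210422-60210721, minus strand), Fasn (chr11:120824498-120824797, minus strand), Acly (chr11:100527951-100528250, minus strand), Thrsp (chr7:97417501-97417800, minus strand) and Pklr (chr3:89136373-89136672, plus strand).
Srebf1 promoter: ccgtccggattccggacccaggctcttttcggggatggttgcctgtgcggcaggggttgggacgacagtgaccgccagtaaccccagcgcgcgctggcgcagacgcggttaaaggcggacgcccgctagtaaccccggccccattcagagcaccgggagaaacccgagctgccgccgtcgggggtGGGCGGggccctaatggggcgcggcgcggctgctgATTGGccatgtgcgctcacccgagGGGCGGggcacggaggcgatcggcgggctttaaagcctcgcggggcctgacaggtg
Fasn promoter: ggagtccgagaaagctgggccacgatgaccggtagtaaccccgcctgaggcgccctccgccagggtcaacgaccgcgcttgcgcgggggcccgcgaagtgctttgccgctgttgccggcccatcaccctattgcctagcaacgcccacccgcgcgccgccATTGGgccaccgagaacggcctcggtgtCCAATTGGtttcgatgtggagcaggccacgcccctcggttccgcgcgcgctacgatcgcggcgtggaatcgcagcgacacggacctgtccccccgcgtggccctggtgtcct
Acly promoter: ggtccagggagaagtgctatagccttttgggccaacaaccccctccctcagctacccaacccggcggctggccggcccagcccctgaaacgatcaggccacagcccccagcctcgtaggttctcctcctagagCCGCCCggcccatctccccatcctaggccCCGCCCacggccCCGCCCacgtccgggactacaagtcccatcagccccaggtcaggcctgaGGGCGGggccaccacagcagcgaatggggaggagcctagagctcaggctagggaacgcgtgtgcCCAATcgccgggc
Thrsp promoter: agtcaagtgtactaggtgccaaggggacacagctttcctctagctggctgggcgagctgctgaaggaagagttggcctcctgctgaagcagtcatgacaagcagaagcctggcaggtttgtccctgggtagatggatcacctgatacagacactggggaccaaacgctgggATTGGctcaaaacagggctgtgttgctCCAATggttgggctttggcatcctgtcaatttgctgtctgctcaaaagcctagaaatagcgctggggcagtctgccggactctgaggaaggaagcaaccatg
Pklr promoter: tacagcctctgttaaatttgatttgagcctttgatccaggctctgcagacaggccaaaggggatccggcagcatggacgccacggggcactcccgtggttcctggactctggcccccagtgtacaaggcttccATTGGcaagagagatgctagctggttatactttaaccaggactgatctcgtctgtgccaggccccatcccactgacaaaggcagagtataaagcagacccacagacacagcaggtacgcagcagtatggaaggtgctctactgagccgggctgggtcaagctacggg

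Fasn had 3 CCAAT matches within 300 bases, of which 2 share bases in the run CCAATTGG, and the 3 begin at -90, -62 and -59, counted from the start as 0. Thrsp had 2, beginning at -79 and -52. Srebf1 had 1 CCAAT and 2 GC boxes in the window shown, and Acly 1 CCAAT, which lies after the start, and 4 GC boxes. The Pklr window shown had 1 CCAAT match, and that of Elovl6 (chr3:129532136-129532435, plus strand) had none for any of the 5 motifs. A CCAAT match occurs in 37.4% and a GC box in 35.7% of all 32851 windows, so a window with a match is common. E-boxes occur in 7.15%, the sterol regulatory element as spelled here in 1.24% and the direct repeat in 0.0152% of windows, and no window of the 6 genes held these exact letters. Sites that differ from these spellings were not searched for, so this does not show that the windows lack such elements.

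**Figure D1:**
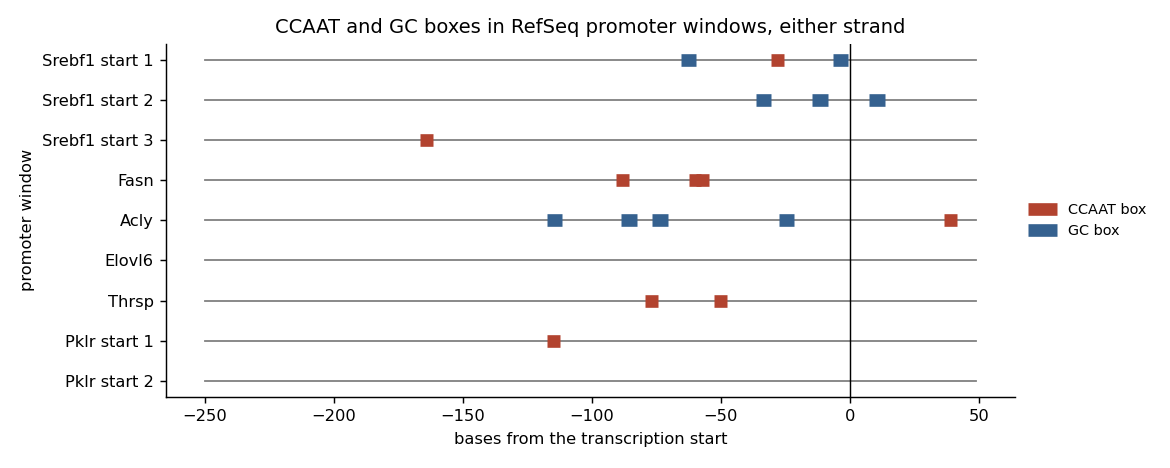
Positions of CCAAT boxes (red) and GC boxes (blue) in the 9 RefSeq promoter windows of 6 genes, in bases from the transcription start (0, vertical line), on either strand. Srebf1 has windows at 3 starts and Pklr at 2, and the Fasn window holds 3 CCAAT matches, more than any other window drawn.

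The regulator itself varied widely among the mice. Srebf1 ran from -0.771 in the lowest mouse through a median of -0.103 to 0.399 in the highest, which is 0.170 to 2.51 times the pool on the reading as log10. After centring in blocks its SD was 0.174, larger than that of 96.3% of all probes used, and the 5th and 95th percentiles over all mice lay 4.32-fold apart. The median SD within blocks over all probes was 0.0616, so Srebf1 varied more than a typical probe. Of the variance of Srebf1, 24.6% lay between the 4 blocks.

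The enzymes of fatty acid synthesis differed in the shape of their spread. Fasn had its lowest mouse at -0.580, its median at -0.198 and its highest mouse at 0.840, 10.9-fold above the median, and its values within blocks had a tail upward (skewness 0.990). Elovl6 ran from -0.652 over -0.125 to 0.892, with its top mouse 10.4-fold above the median and a skewness of 1.01. Acly was narrower, at -0.258, -0.0499 and 0.591, with a skewness of 1.66. A few mice with numbers up to 212 stand above the rest in all of these 3 genes, while the low side is short. Scd1 had the opposite shape, with -0.780, -0.0808 and 0.367 and a skewness of -0.393, so its extremes lie on the low side. The 5th and 95th percentiles lay 4.27-fold apart in Fasn, 3.64-fold in Elovl6, 1.99-fold in Acly and 5.14-fold in Scd1.

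Thrsp and Pklr stood at the opposite ends. Thrsp ran from -0.914 over -0.104 to 0.642, its percentiles lay 11-fold apart, and 99.5% of the probes had a smaller SD within blocks than its 0.308. Pklr ran from -0.0644 over 0.000436 to 0.0853, its percentiles lay 1.20-fold apart, and with an SD of 0.0228 only 0.238% of the probes varied less. In 5 of the 7 genes, all but Acly and Pklr, the SD within blocks was over 2 times the median of all probes. No other probe carries the name Pklr, so neither its narrow range nor whether it follows Pklr RNA can be checked with a second probe.

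**Figure D2:**
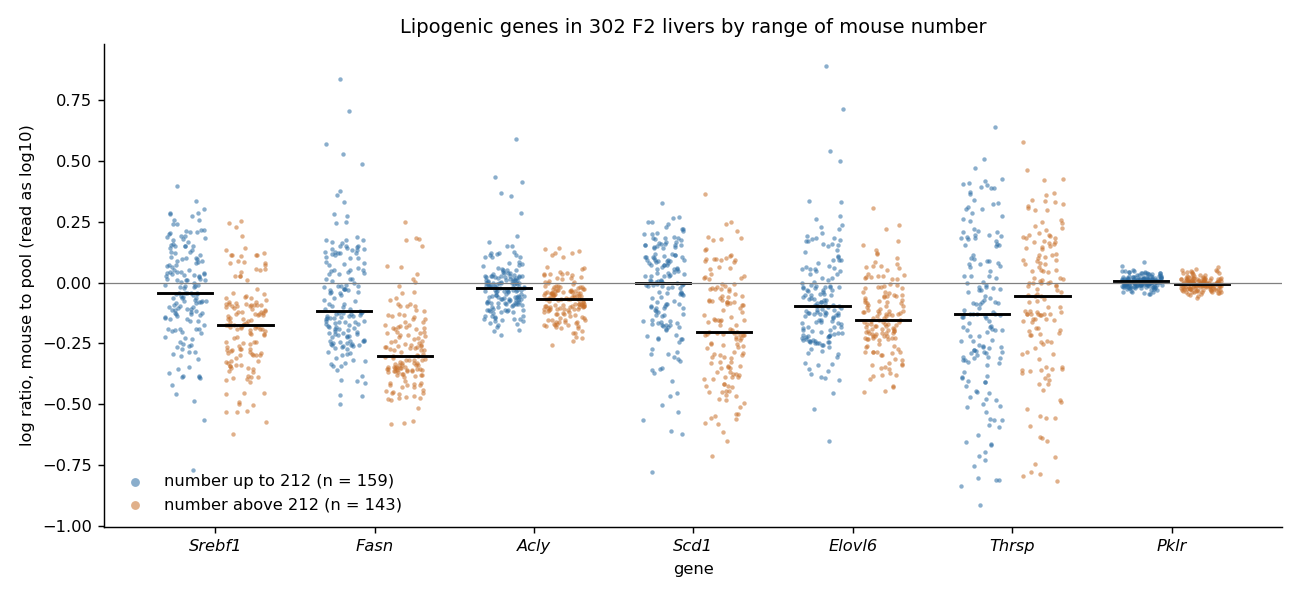
Log ratio to the pool (vertical axis, read as log10) of the 7 genes in 302 livers, 1 point per mouse, in blue for mouse numbers up to 212 (n = 159) and orange for those above (n = 143), with a black line at each median. Thrsp spreads widest, from -0.914 to 0.642, Pklr stays between -0.0644 and 0.0853, and the highest Fasn, Acly and Elovl6 values belong to numbers up to 212.

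The 2 ranges of mouse numbers differed in most of these genes, and so did most of the array. Fasn had a median of -0.117 (lowest -0.499, highest 0.840) up to number 212 and of -0.303 (-0.580 to 0.250) above it. The groups overlap, yet 122 of the 143 later mice (85.3%) lay below the earlier median. With Eif2s3y as a block the difference, later minus earlier, was -0.201 (SE 0.0220, 1.59-fold lower, limma's moderated test, Benjamini-Hochberg adjusted p = 1.73e-16). Srebf1 had medians of -0.0408 and -0.174 and a difference of -0.133 (SE 0.0200, adjusted p = 9.47e-10). Scd1 had medians of -0.00105 and -0.203 and a difference of -0.152 (SE 0.0241, adjusted p = 5.71e-09). For Acly, Elovl6 and Pklr the differences were -0.0577, -0.0690 and -0.00862 (adjusted p = 4.07e-06, 0.00223 and 0.00367).

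Thrsp did not pass the test, with medians of -0.131 and -0.0533 and a difference of 0.0403 (SE 0.0356, adjusted p = 0.322). Within the mice with Eif2s3y above -0.8 the difference in Thrsp means was 0.114 and within those below it -0.0436. The difference in Pklr was 0.00138 above and -0.0200 below that limit, and the other 5 genes were lower in the later mice within both. In all, 6 of the 7 genes were lower in the later mice, while 30.6% of all 23512 probes were lower and 33.9% higher, 64.5% in either direction. The labels do not say what the number stands for.

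Across mice within blocks, 6 of the genes moved together and the Pklr probe did not move with them. Of the 21 pairs, 15 were correlated at an adjusted p under 0.05 in the fit over all probes, all positively, and these are all 15 pairs without Pklr. Read against the background, 19.9% of all other probes were correlated with Srebf1, 51.9% with Fasn, 27.0% with Acly, 42.7% with Scd1, 40.2% with Elovl6, 35.4% with Thrsp and 61.6% with Pklr, in either direction. The positive share, which the pairs are to be read against, was 9.03% for Srebf1, 21.7% for Fasn, 11.8% for Acly, 18.0% for Scd1, 16.1% for Elovl6, 16.3% for Thrsp and 37.2% for Pklr. The negative share was 10.9%, 30.2%, 15.2%, 24.7%, 24.1%, 19.1% and 24.4% in the same order. For each of the 15 pairs, Pearson's r and Spearman's rho had a two-sided permutation p of 1e-05 with mice permuted within blocks, the smallest that 100000 permutations can give.

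The 4 enzymes from citrate to desaturated fatty acid formed the tightest set, with r between 0.462 and 0.761. Fasn and Elovl6 had r = 0.761 (95% interval 0.709 to 0.805, rho = 0.683, 0.724 without the 2 mice farthest from the Fasn median). Fasn and Acly had r = 0.693 (0.629 to 0.747, rho = 0.583, 0.642 without 2 mice), and Fasn and Scd1 r = 0.640 (0.568 to 0.702, rho = 0.661, 0.637 without 2 mice). Acly with Elovl6 (0.579), Scd1 with Elovl6 (0.525) and Acly with Scd1 (0.462) followed. Fasn, the enzyme in the middle of the path, thus had the 3 highest values among the 21 pairs, and its intervals with Acly and Scd1 overlap.

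Srebf1 had r between 0.295 and 0.449 with the 4 enzymes, against 0.462 to 0.761 among the enzymes themselves. Its highest r was with Thrsp, 0.464 (0.371 to 0.549, rho = 0.409, adjusted p = 1.49e-14), followed by Acly at 0.449 (0.354 to 0.536, rho = 0.476), Fasn at 0.396 (0.296 to 0.487, rho = 0.405), Scd1 at 0.350 (0.246 to 0.445, rho = 0.370) and Elovl6 at 0.295 (0.188 to 0.396, rho = 0.286). Neighbours in this order have overlapping intervals. Srebf1 thus shared 15.7% of its variance with Fasn, against the 58.0% that Fasn shared with Elovl6. Holding Srebf1 constant lowered the median r over the 10 pairs of the other 5 genes from 0.497 to 0.417, and Fasn with Elovl6 from 0.761 to 0.734. Among the mice with Eif2s3y above -0.8 alone (n = 160), r of Srebf1 was 0.221 with Scd1 (adjusted p = 0.0700) and 0.149 with Elovl6 (adjusted p = 0.294), so these 2 pairs do not pass there.

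Thrsp had its highest r with Acly and Srebf1 and its lowest, Pklr aside, with Scd1. It was 0.469 with Acly, 0.381 with Fasn, 0.373 with Elovl6 and 0.276 with Scd1 (0.168 to 0.377). With the smooth trend of mouse number as a covariate these were 0.522, 0.554, 0.470 and 0.459, and 0.535 with Srebf1, so the order among them is not the same there. Thrsp and Scd1 were the only pair of the 15 that was not positive in all 4 blocks, with -0.157 among 82 mice with Eif2s3y above -0.8 and numbers up to 212, and 0.381 to 0.430 in the other 3 blocks. In the mice with numbers up to 212 this pair had r = 0.152 (adjusted p = 0.152), and in those with Eif2s3y above -0.8 it had 0.150 (adjusted p = 0.122).

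Pklr had r between -0.0792 (with Elovl6) and 0.0994 (with Acly) with the other 6 genes, none past the threshold in the fit over all probes. Permutation p for r ran from 0.0763 to 0.780, while that for rho of Elovl6 and Pklr (-0.140) was 0.0145 before adjustment and those of the other 5 pairs ran from 0.192 to 0.680. Its pairs changed sign from block to block, for example -0.428 with Scd1 in the mice above both limits and 0.236 in those below both. On the other hand Pklr moved with the SD of the array, at r = 0.235 (0.124 to 0.339, rho = 0.279, permutation p = 4e-05), the highest of the 7 genes over all mice. For the others this r ran from -0.102 to 0.151, with rho between -0.235 and -0.0337. The lowest rho, -0.235 (permutation p = 4e-05), was that of Scd1. Blocks differed in sign. Among the mice with Eif2s3y below -0.8 and numbers up to 212, r with the array SD was 0.469 for Acly, 0.452 for Elovl6, 0.437 for Fasn and 0.393 for Pklr, and among those above both limits it was -0.371 for Fasn and -0.510 for Scd1. With arrays scaled to one SD, r was 0.775 for Fasn and Elovl6 and 0.675 for Fasn and Acly, and without the 10% of arrays with the largest SD 0.777 and 0.680. The part of the array's spread in the values of Pklr and Scd1 was not tested.

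The strength of the pairs differed from block to block. In the 77 mice with Eif2s3y below -0.8 and numbers up to 212, r was 0.905 for Fasn and Elovl6, 0.883 for Fasn and Acly and 0.855 for Acly and Elovl6. In the 78 mice above both limits the same pairs had 0.490, 0.455 and 0.294. The SD of Fasn was 0.247 in the first of these blocks and 0.156 in the other. In the first principal component of the 7 centred genes, 48.8% of the variance, Fasn (0.478) and Acly (0.445) had the largest weights, Srebf1 and Thrsp 0.337 and 0.339, and Pklr -0.00350.

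Mice numbered 135, 136 and 137, all in the block with Eif2s3y below -0.8 and numbers up to 212, were at or near the top in Fasn, Acly and Elovl6. In Scd1 they ranked 55th, 2nd and 10th. Mouse 136 had the highest value of the 302 in Fasn (0.840), Acly (0.591), Elovl6 (0.892) and Acaca (0.673). Mouse 137 followed in Fasn (0.705), Acly (0.436) and Elovl6 (0.713). Mouse 135 was 3rd in Acly (0.413) and Elovl6 (0.540), 4th in Fasn (0.529) and highest in Pklr (0.0853). Their Srebf1 values of 0.240, 0.256 and 0.189 for 135, 136 and 137 ranked 13th, 9th and 25th, so the regulator was high in them but not at its top. The SD of their arrays, 0.190, 0.117 and 0.223, exceeded that of 98.7%, 84.4% and 99.0% of all arrays, and its part in these values was not tested. Without the 3 mice, a choice made after their values were seen, r was 0.711 for Fasn and Elovl6, 0.623 for Fasn and Acly and 0.456 for Acly and Elovl6, and the same 15 pairs passed beside a 16th, Elovl6 with Pklr (r = -0.145, adjusted p = 0.0361). Within their own block (n = 74) the 3 pairs of enzymes then had 0.844, 0.811 and 0.718.

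**Figure D3:**
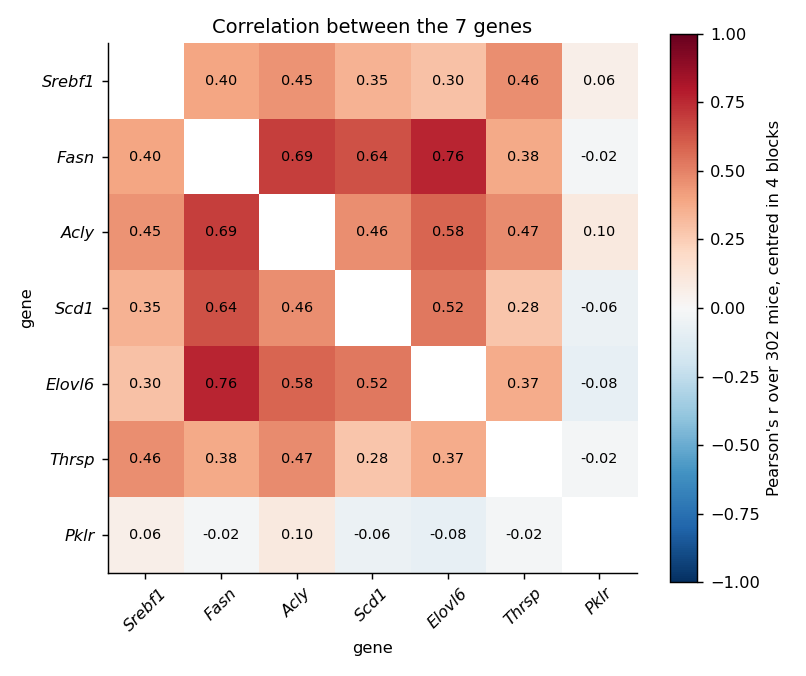
Pearson's r between the 7 genes over 302 mice after centring in 4 blocks, printed in each cell and coloured from -1 (blue) to 1 (red). The 4 enzymes Fasn, Acly, Scd1 and Elovl6 have r from 0.462 to 0.761, Srebf1 and Thrsp have r from 0.276 to 0.469 with them, and the Pklr row is near 0.

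Among named genes, each taken at its probe with the largest SD, the highest with Srebf1 was Insig1, whose product holds SREBP in the endoplasmic reticulum and which is itself a target of SREBP. Insig1 ran from -0.490 over -0.0659 to 0.557 among the mice and had r = 0.551 with Srebf1 (rho = 0.566, adjusted p = 1.88e-21). It was positive in all 4 blocks, from 0.458 to 0.637, and its r with Fasn was 0.370. Abcg5, Fdft1 (squalene synthase) and Thrsp itself were also among the 10 highest named genes. So were the tyrosine-kinase-less receptor Fgfrl1 at 0.512, Cryl1 at 0.494 and the transporter Slc7a4 at 0.492. Ube2d-ps (0.525), Gsap (0.495) and Hsd3b2 (0.475) complete them, and the second probe named Ube2d-ps had r = -0.180.

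The lowest named gene with Srebf1 was Eif2b4, a subunit of the translation factor eIF2B, at r = -0.520 (rho = -0.519, adjusted p = 1.61e-18). The proteasome subunits Psmd4 and Psmc4 had -0.491 and -0.428, and Cct3 and Cct2, subunits of the chaperonin that folds actin and tubulin, -0.442 and -0.427. The other probe of Psmd4 had -0.254, and the other probes of Cct3 ran from -0.497 to -0.0385, so probes of 1 gene differ. Arhgef18, Plrg1, Champ1, Pum3 and Trim39 lay between -0.491 and -0.410.

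The sterol exporters Abcg5 and Abcg8, which pair to pump cholesterol and plant sterols into bile and are switched on by liver X receptors, were positive with Srebf1 and negative with Fasn over all mice. Abcg5 ran from -0.510 over 0.00611 to 0.305 and had r = 0.488 with Srebf1 (rho = 0.449, adjusted p = 2.95e-16) and -0.223 with Fasn. Abcg8 ran from -0.369 over 0.0120 to 0.354, with 0.438 and -0.183. With the trend of mouse number as a covariate, r with Fasn was -0.184 for Abcg5 (adjusted p = 0.00453) and -0.119 for Abcg8 (adjusted p = 0.0792). The negative r with Fasn did not pass in the mice with numbers above 212 (-0.0735 for Abcg5 and -0.0804 for Abcg8, adjusted p = 0.5004 and 0.457) nor in those with Eif2s3y below -0.8 (-0.0719 and -0.0737, adjusted p = 0.555 and 0.544), while r with Srebf1 was 0.442 and 0.338, and 0.464 and 0.397, in these mice. In a fit with Srebf1, Fasn and Thrsp together, each in units of its SD, Abcg5 rose by 0.619 SD per SD of Srebf1 and fell by 0.534 SD per SD of Fasn, and the difference of 1.15 between these slopes had an adjusted p of 1.83e-33. For Abcg8 the slopes were 0.497 and -0.490 (adjusted p of the difference = 1.23e-23). This fit was chosen after the single correlations had been seen, and the slopes on Srebf1 and Fasn differed in 33.9% of all probes.

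Ppargc1b, a coactivator of SREBP, followed the same order, with r = 0.450 for Srebf1 and -0.0367 for Fasn (adjusted p of the slope difference = 4.01e-14). Lpcat3, a phospholipid-remodelling target of liver X receptors, did not, with 0.439 and 0.395 (adjusted p = 0.298). Insig2, the second INSIG gene, was negative with Srebf1 (r = -0.274, adjusted p = 4.23e-05). Pltp, the phospholipid transfer protein, had 0.187 with Srebf1 and 0.609 with Fasn.

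**Figure D4:**
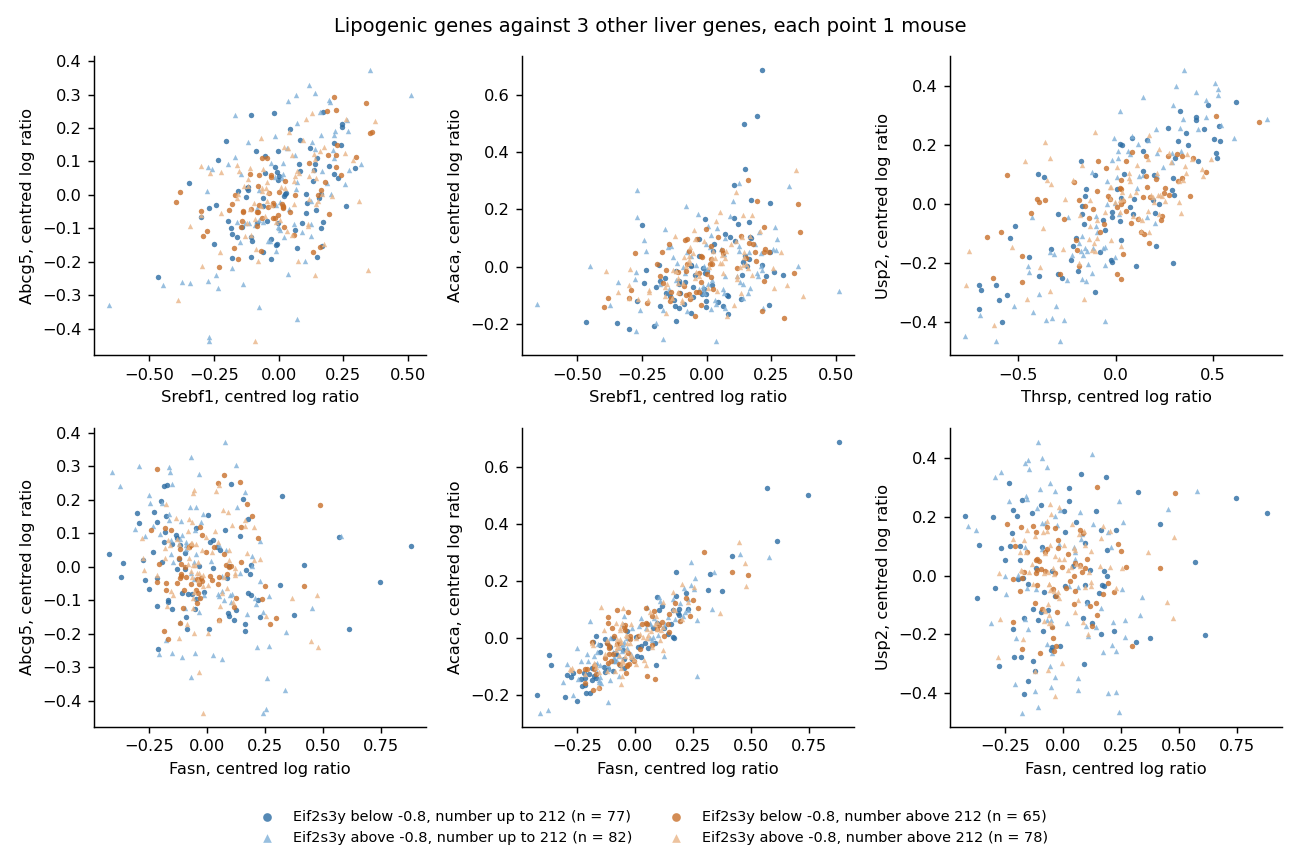
Block-centred log ratios of Abcg5 (left), Acaca (middle) and Usp2 (right) against Srebf1 and Fasn, or Thrsp and Fasn, with 1 point per mouse and colour and shape for the 4 blocks. Abcg5 rises with Srebf1 (r = 0.488) and falls with Fasn (-0.223), Acaca follows Fasn (0.853) more than Srebf1 (0.366), and Usp2 has r = 0.712 with Thrsp and 0.00550 with Fasn.

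The closest companion of Fasn was Acaca, acetyl-CoA carboxylase, which makes the malonyl-CoA that fatty acid synthase uses. The Acaca probe with the largest SD ran from -0.344 over -0.107 to 0.673 and had r = 0.853 with Fasn (rho = 0.789, adjusted p = 3.64e-82), 0.721 with Elovl6 and 0.666 with Acly. The other 2 probes of Acaca had r between -0.217 and 0.00206 with Fasn, so this holds for 1 of the 3 probes. Next came Elovl6, the phosphatase Dusp9 (0.737), the sterol reductase Dhcr7 (0.729) and Acly. Dhcr7 and Nsdhl, both of cholesterol synthesis, were also among the 5 highest with Acly (0.649 and 0.591).

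The lowest genes with Fasn were the cytochromes P450 Cyp2c37 (r = -0.694, rho = -0.709, adjusted p = 2.68e-41) and Cyp2c54 (-0.665), and the phospholipase Gpld1 (-0.648). These 2 cytochromes are close relatives, and a probe may not tell them apart. Gpld1 was also the lowest named gene with Scd1 (-0.585) and with Elovl6 (-0.561). Pla2g12a was lowest with Acly (-0.489), and Igfbp2, which insulin lowers in liver, was among the 3 lowest with it (-0.448) and had -0.583 with Fasn.

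Scd1 and Fasn had r = 0.640, and Gpld1 was among the 3 lowest named genes of both. Their 5 highest named genes were different, which says little for lists this short out of 10814 genes. The highest named gene with Scd1 was Mx1, an interferon-induced GTPase, at r = 0.875 (rho = 0.875, adjusted p = 8.80e-92). Between Mx1 and Fasn r was 0.546. Mx1 ran from -0.807 over -0.0617 to 0.278, a spread like that of Scd1, and was tied to it in all 4 blocks (0.796 to 0.922). The uncharacterised 6330403K07Rik (0.804), the lysosomal enzyme Gusb (0.696), the insulin receptor substrate Irs1 (0.692) and the fatty acid receptor Gpr84 (0.680) followed. The desaturases Fads1 and Fads2 had 0.610 and 0.622 with Scd1. Gusb is in common use as a reference gene, and here it also had r = 0.627 with Fasn.

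The named gene highest with Thrsp was Usp2, a ubiquitin protease whose RNA cycles in liver. It ran from -0.538 over 0.0364 to 0.384 and had r = 0.712 with Thrsp (rho = 0.700, adjusted p = 1.31e-43) and 0.00550 with Fasn. Upp2 (0.630), the mitochondrial carrier Sfxn1 (0.617) and Coq10b (0.597) were high as well, and the second probe of Upp2 had -0.0318. The clock repressor Nr1d1 (Rev-erb alpha) ran from -0.922 over -0.0962 to 0.384 and had r = -0.632 with Thrsp (rho = -0.636), with -0.677 to -0.540 in the 4 blocks and -0.0740 with Srebf1. Per2 had 0.502 and Arntl (Bmal1) -0.391, and in the mice with numbers above 212 alone Arntl did not pass (-0.176, adjusted p = 0.163). The trend of mouse number held 46.8% of the variance of Usp2 within blocks and 34.6% of that of Nr1d1. With it as a covariate r with Thrsp was 0.611 for Usp2, -0.512 for Nr1d1, 0.424 for Per2 and -0.286 for Arntl, and Usp2 had 0.167 with Fasn (adjusted p = 0.0104). Dna2 (-0.650) and Gtf2ird1 (-0.615) were the other named genes at the low end. The labels do not give the time of day at which a mouse was killed.

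Dgat2, which makes triglyceride in the last step of its synthesis, was the second highest gene with Thrsp, at r = 0.630 (rho = 0.603, adjusted p = 3.56e-31) and -0.0378 with Fasn (0.491 and 0.0662 with the trend of mouse number as a covariate). It ran from -0.212 over 0.0199 to 0.224. Dgat2 is also the 9th measured gene to one side of Thrsp on chromosome 7. The phosphatidate phosphatases Lpin1 (0.521) and Lpin2 (0.406) and the glucose transporter Slc2a2 (0.553) moved with Thrsp too, at -0.0772, -0.101 and 0.114 with Fasn. In the joint fit the slopes on Thrsp and Fasn differed for Dgat2 (1.07 SD, adjusted p = 5.63e-33) and Usp2 (1.14 SD, adjusted p = 2.69e-42), and over all probes they differed in 51.0%. With the trend they differed by 0.913 SD (adjusted p = 1.75e-13) and 0.977 SD (adjusted p = 3.22e-17).

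The Pklr probe had high correlations, but with genes of other functions. Of all other probes 61.6% were correlated with it, and whether it follows Pklr RNA was not tested. The zinc finger gene Zc3h4 (r = 0.717, rho = 0.697, adjusted p = 2.11e-42), the steroid dehydrogenase Hsd11b2 (0.712), the neurokinin receptor Tacr3 (0.697), Clcn6 (0.685) and Elf3 (0.678) were highest. Their SDs within blocks, 0.0246 to 0.0372, were nearly as small as that of Pklr. Tpd52 (-0.609), Tnfaip8 (-0.593) and Acot9 (-0.584) were lowest.

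Lists of related genes show what each regulator and enzyme moved with. Genes with several probes are represented by the one with the largest SD within blocks, and a named gene was correlated positively with Srebf1 in 10.2% and negatively in 10.9% of 10814 cases. Of 18 measured genes of other steps of fatty acid and triglyceride synthesis, 11 were positive and 0 negative with Srebf1 (median r 0.169 against -0.000819 over all genes). With Fasn 13 were positive and 0 negative (median 0.380, background 25.3% and 29.0%), and with Scd1 and Elovl6 12 and 0 each. Acaca (0.366), Dgat2 (0.295), Pnpla3 (0.292) and the citrate carrier Slc25a1 (0.254) were the highest with Srebf1. In the 160 mice with Eif2s3y above -0.8 alone 3 passed with Srebf1, and with numbers up to 212 alone 5. Over all probes 1293 and 1819 were correlated with Srebf1 in these mice, against 4687 in all 302. A lower count in them is thus not particular to this list, and the same holds for the later lists.

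Sterol synthesis moved with the lipogenic genes as well. Of 14 measured genes 10 were positive and 1 negative with Srebf1 (median 0.206), 11 and 1 with Fasn (median 0.395), and 12 and 0 with Acly (median 0.424, background 12.7% and 14.9%). Dhcr7 (0.729), Fdps (0.635), Nsdhl (0.633) and Cyp51 (0.585) were highest with Fasn, whereas with Srebf1 they had 0.305, 0.206, 0.222 and 0.152. Of the 15 genes of glycolysis and sugar entry 7 were positive and 1 negative with Srebf1, and 10 and 1 with Fasn. In the mice with Eif2s3y above -0.8 alone 4 of them were positive with Srebf1. Khk, which phosphorylates fructose, had r between 0.431 and 0.516 with all 6 genes other than Pklr, and Gckr, the inhibitor of glucokinase, 0.383 with Srebf1. In the mice with Eif2s3y above -0.8 alone 4 of the sterol genes were positive with Srebf1 and 7 with Fasn. With numbers above 212 alone 4 sterol genes were positive with Srebf1. Over all probes 1293 were correlated with Srebf1 at Eif2s3y above -0.8, against 4687 in all mice.

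The genes that burn fat ran the other way for part of the set. Of 14 measured genes of fatty acid oxidation and fasting, 8 were negative and 0 positive with Srebf1 (median -0.179), 9 and 0 with Acly (median -0.148), and 6 and 0 with Fasn (median -0.0850). With Scd1, Elovl6 and Thrsp the counts were 2 negative and 1 positive, 2 and 3, and 3 and 3. Of all named genes 23.9%, 24.3% and 20.9% were negative and 20.1%, 17.1% and 16.8% positive, in the same order. With the trend of mouse number as a covariate, 6 were negative and 0 positive with Thrsp. Ehhadh, of peroxisomal oxidation, had -0.355 with Srebf1 and -0.413 with Acly, Cpt2, of carnitine transport, -0.325 and -0.355, and the PPAR alpha target Cyp4a14 -0.314 and -0.274. Ppara itself had -0.00668 with Srebf1. Among the mice with Eif2s3y above -0.8 alone 4 were negative with Srebf1. With Fasn 3 were negative there, in the mice with numbers above 212 and with the first principal component held constant. Over all mice 29.0% of all named genes were negative with Fasn. The share in these 3 settings was not computed, so the counts cannot be read against it.

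Fat storage genes were mostly positive with Fasn, and gluconeogenesis genes with Thrsp. All 7 measured fat storage genes were positive with Fasn (median 0.355) and 6 with Scd1 and with Thrsp, among them the droplet proteins Cidea (0.445 with Fasn) and Fitm1 (0.499), but 1 was positive and 1 negative with Srebf1, and 6 were negative with Pklr. Of all named genes, 25.3% were positive with Fasn, 20.1% with Scd1, 16.8% with Thrsp and 10.2% with Srebf1. The negative share was 10.9% with Srebf1 and 26.4% with Pklr. In the joint fit all 7 fat storage genes had a lower slope on Srebf1 than on Fasn at an adjusted p under 0.05. Over all probes these slopes differed in 33.9%, counting either direction. With the first principal component of all probes held constant, 2 of the 7 remained positive with Fasn. Of 7 measured genes of gluconeogenesis and insulin-suppressed genes 6 were positive with Thrsp (median 0.319, background 16.8%), 2 with Srebf1 and 1 with Fasn. Foxo1 (0.382), Ppargc1a (0.348), G6pc (0.332) and Pck1 (0.319) were highest with Thrsp, and Igfbp2 was the 1 negative gene (-0.306). In the mice with numbers above 212 alone 2 of the 7 were positive with Thrsp. In the joint fit 6 of the 7 had a higher slope on Thrsp than on Fasn, and 4 with the trend of mouse number added. Over all probes these slopes differed in 51.0%, and in 36.2% with the trend, counting either direction.

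Of 14 clock genes 5 were positive and 2 negative with Srebf1, 6 and 2 with Thrsp, and 0 and 2 with Fasn. Of all named genes 10.2% were positive and 10.9% negative with Srebf1, 16.8% and 20.9% with Thrsp, and 25.3% and 29.0% with Fasn. The counts over all mice of the other lists in this paragraph are to be read against the same shares. The count of clock genes positive with Thrsp was 3 with numbers above 212 alone, 2 with Eif2s3y below -0.8 alone and 3 with the trend of mouse number. The count negative with Fasn was 5 by ranks and 5 without the mice numbered 135 to 137, 6 with Eif2s3y above -0.8 alone and 8 with no range of numbers in the blocks. Per2 had 0.357 and Arntl -0.332 with Srebf1, and their slopes on Srebf1 and Fasn differed in the joint fit (adjusted p = 0.000916 and 9.69e-06). In the mice with numbers above 212 alone 1 clock gene was positive and 1 negative with Srebf1. Liver X receptor targets of sterol export had 4 positive and 0 negative of 7 with Srebf1, and 3 and 3 with Fasn (0 negative with numbers above 212 alone, 1 with Eif2s3y below -0.8 alone and 1 with the trend). Among 25 regulators of lipogenic transcription 7 were positive and 5 negative with Srebf1 (median 0.0320), with Bhlhe40 (0.357) and Irs2 (-0.319) beside Insig1 and Ppargc1b. With numbers up to 212 alone 3 were positive and 3 negative. Of 8 reference genes of general function 1 was positive (Gusb, 0.255) and 1 negative (Tbp, -0.232) with Srebf1, near the shares of all named genes.

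**Figure D5:**
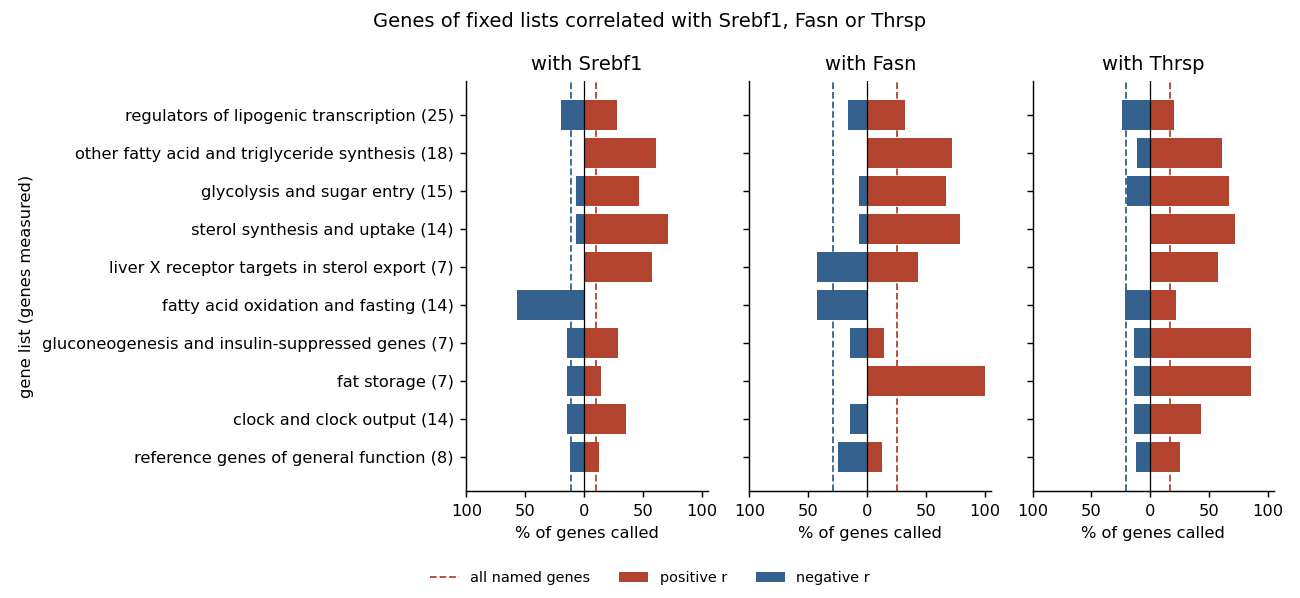
Share of the measured genes of 10 lists (number measured in brackets) with a positive (red, to the right) or negative (blue, to the left) correlation past an adjusted p of 0.05 with Srebf1, Fasn or Thrsp, with dashed lines at the shares over all named genes. Fatty acid and sterol synthesis lie to the right of the lines in all 3 panels, oxidation lies to the left with Srebf1, and with Fasn over all mice, and all 7 fat storage genes are positive in the Fasn panel.

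Markers of other cells moved with some of the genes. In bulk liver, fewer cells of a type and less RNA per cell cannot be told apart. With Fasn, 8 of 10 macrophage markers, 5 of 6 stellate cell markers and 6 of 8 endothelial markers were positive and 0 negative, where 25.3% of all named genes were positive, and the mean of the stellate markers had r = 0.465, with Col1a1 at 0.524. That mean ran from -0.404 to 0.452 up to number 212 and from -0.390 to 0.232 above it. With Srebf1 the counts were 0 of 10, 2 of 6 and 2 of 8, and r of the stellate mean was 0.149, with 10.2% of all named genes positive. With Pklr, 6 of 6 stellate markers and 6 of 10 macrophage markers were negative (26.4% of all named genes), and the stellate mean had r = -0.407. Of 5 fat cell markers 2, Slc2a4 (0.401 with Srebf1, 0.484 with Thrsp) and Car3 (0.345 and 0.434), were positive with both genes, while Lep had -0.146 and -0.169. The mean of these 5 markers had r = 0.439 with Srebf1 and 0.538 with Thrsp. The median of their 5 single r was -0.0234 with Srebf1 and 0.00354 with Thrsp, so the mean does not describe the list. With Thrsp 2 of the 5 were negative, where 16.8% of all named genes were positive and 20.9% negative. Adipoq had no named probe here, so the list lacks its defining gene. The part of these cells in the correlations of the 7 genes was not tested.

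Of the smaller lists, hepatocyte markers (5 measured) had 2 negative with Srebf1 and with Fasn, and 3 positive with Pklr. Their r with Fasn ran from -0.492 (Hnf4a) to 0.101, with a median of -0.0852. The mean of the 5 ran from -0.166 to 0.156 over the mice up to number 212. Red cell markers (5 measured) had 2 positive with Srebf1 and 4 with Fasn, bile duct markers (3 measured) 1 negative with Srebf1 and 2 positive with Fasn, and exocrine pancreas markers (4 measured) none with Srebf1 and 1 positive and 2 negative with Fasn. Of all named genes 25.3% were positive and 29.0% negative with Fasn, 10.2% and 10.9% with Srebf1, and 36.4% and 26.4% with Pklr.

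Between 4 and 15 of the 20 nearest measured genes on the chromosome passed with each of the 7, to be read against the share of all named genes. Of the 20 nearest measured genes, 3 were positive and 1 negative with Srebf1 on chromosome 11, among them Pemt (0.221), which makes phosphatidylcholine in liver, and Llgl1 (-0.287). All named genes gave 10.2% and 10.9% there. The counts were 8 and 4 for Fasn (background 25.3% and 29.0%) and 1 and 3 for Acly (12.7% and 14.9%), both on chromosome 11, and 5 and 8 for Elovl6 on chromosome 3 (17.1% and 24.3%). For Thrsp they were 1 and 3 (16.8% and 20.9%), with Dgat2 as the 1 positive gene. Scd1 on chromosome 19 had 7 and 4 (20.1% and 23.9%), with its relative Scd2 at 0.30 and Scd3 at -0.203, which have similar sequences that a probe may not tell apart. Pklr on chromosome 3 had 10 and 5, with Mtx1 at 0.577 and Rab25 at 0.555, against its background of 36.4% and 26.4%.

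Slopes on Srebf1 did not differ detectably between the 2 ranges of mouse numbers. Of the other 6 genes none had a slope that differed between the ranges (limma, lowest adjusted p = 0.340 for Scd1, and 0 of 6 at an unadjusted p under 0.05), while 0.540% of all probes had one. For slopes on the other genes this share was 5.49% with Fasn, 0.753% with Acly, 0.166% with Scd1, 0.0553% with Elovl6, 8.50% with Thrsp and 5.03% with Pklr. Without the mice numbered 135 to 137 the number of such probes went from 1291 to 10 with Fasn (9 called in both), from 177 to 0 with Acly and from 127 to 54 with Srebf1 (54 in both). It also fell from 39 to 25 with Scd1 and from 13 to 1 with Elovl6, but rose from 1999 to 2204 with Thrsp and from 1182 to 1307 with Pklr. With the trend of mouse number as a covariate it went from 1999 to 8 with Thrsp, from 1291 to 648 with Fasn and from 127 to 6 with Srebf1. With the trend it also fell to 34 with Acly and 21 with Scd1, but rose to 75 with Elovl6 and 1213 with Pklr. r of Srebf1 with Fasn was 0.368 up to number 212 and 0.454 above, and with Scd1 0.287 and 0.420. A p above the threshold does not show that the slopes are the same. Elovl6 had a slope of 0.805 per unit of Fasn up to number 212 and of 0.545 above it, which differed (limma, adjusted p = 0.0265) but not without the mice numbered 135 to 137 (0.723 and 0.545, adjusted p = 0.369).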

How the data were processed

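The deposited table of the authors holds log ratios that were read as log10, in 302 columns that each matched the label of 1 mouse. What was done before deposit is in part unknown, with base, direction, feature extraction and normalization not given in the sources used here. RNA was purified on Qiagen columns with DNAse and amplified with aminoallyl labelling, per the labels' protocols. No further normalization was applied. Probes were named from the array's annotation table (12652 with 1 gene). The 23512 probes with values in at least 90% of mice were kept, and 0.0831% of values were missing.

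For each of the 7 genes, all other probes were fitted on its standardized value with 4 blocks, using limma 3.58.1 under R 4.3.3 (two-sided test, Benjamini-Hochberg adjustment over all probes, threshold 0.05). Pearson's r and Spearman's rho of pairs were taken after centring in blocks, with 100000 permutations within blocks and 95% intervals from Fisher's z. The steps were tested on simulated data. Text names the 10 highest and lowest named genes by r for Srebf1, the 5 highest and 3 lowest for the others, up to 4 per fixed list, and chromosomal neighbours. Values of further genes of the lists, the joint fit and slope tests for genes other than Srebf1 were chosen after seeing the data. Leaving out the mice numbered 135 to 137 and a smooth trend of mouse number (natural splines with 5 columns in each range) were chosen likewise. The 7 genes, 10 pathway lists and 8 marker lists were chosen with earlier results of these data known.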

Additional observations from a re-analysis of the deposited data

Results flagged for a closer look

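In 9 of 82 pairs examined, the slope of a gene on a lipogenic gene differed between mouse numbers up to 212 and above (limma, product term with 4 blocks, adjusted over all probes). Most of them were less steep in the later mice. The test was repeated without the mice numbered 135 to 137, which hold the highest values of several of these genes, a choice made after seeing the data.

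The lowest adjusted p concerned Thrsp. Usp2 rose by 0.555 per unit of Thrsp up to 212 and by 0.253 above (adjusted p = 6.63e-06, r = 0.806 and 0.548). For Upp2 the slopes were 0.665 and 0.267 (adjusted p = 3.76e-05, r = 0.705 and 0.512). Dgat2 had slopes of 0.177 and 0.112 (adjusted p = 0.0379, r = 0.716 and 0.495) and Coq10b 0.365 and 0.222 (adjusted p = 0.0410, r = 0.680 and 0.463). In these 4 genes the slope on Thrsp was positive in both ranges and steeper in the earlier mice, and without the 3 mice the adjusted p were 5.87e-06, 2.87e-05, 0.0201 and 0.0394. With a smooth trend of mouse number as a covariate, also chosen after seeing the data, none of the 4 passed (adjusted p = 0.459 for Usp2 and 0.9997 for the other 3).

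Among the enzymes, the slope of Elovl6 on Fasn was 0.805 up to 212 and 0.545 above (adjusted p = 0.0265, r = 0.842 and 0.578), and that of Elovl6 on Scd1 was 0.647 and 0.290 (adjusted p = 0.0313, r = 0.611 and 0.431). Dusp9 was the exception, with slopes on Fasn of 0.367 up to 212 and 0.530 above (adjusted p = 0.0239) at r of 0.747 and 0.750. None of these 3 differences passed without the 3 mice, with slopes of 0.723 and 0.545, 0.551 and 0.290, and 0.418 and 0.530 (adjusted p = 0.369, 0.152 and 0.347). With Scd1, Irs1 had slopes of 0.253 and 0.149 (adjusted p = 0.0234, r = 0.762 and 0.624) and 6330403K07Rik 0.351 and 0.248 (adjusted p = 0.0372, r = 0.826 and 0.799). Both passed without the 3 mice (adjusted p = 0.0488 and 0.0456). With the trend the adjusted p were 0.0363 and 0.0146 for Elovl6 on Fasn and on Scd1, 0.0236 for Dusp9, 0.00920 for Irs1 and 0.0604 for 6330403K07Rik.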

How the results depend on the processing

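Under 13 alternatives, the count of positively correlated pairs stayed between 12 and 17 against 15. The count of 5 widely varying genes was the same under 5 alternatives, and that of 6 genes lower above number 212 under 6. The r of the genes named as highest or lowest with a lipogenic gene kept their sign and side of the threshold in all 793 comparisons. These genes were picked for their extreme r in the same mice, so this is a weak check and does not extend to other genes. For further pairs, 67 of 91 comparisons kept both, 6 no longer passed, 4 newly passed and 14 changed sign. The r of most other list genes was not compared one by one. Correlates of Srebf1 numbered 4687, but 10736 with no blocks, 10067 with Eif2s3y blocks only, 1819 in mouse numbers up to 212 only and 1293 with Eif2s3y above -0.8 only, the last 2 with fewer mice. The 127 probes whose slope on Srebf1 differed by range became 34 with arrays scaled to one SD, 54 without the 3 mice numbered 135 to 137 and 49 without the 10% of arrays (31) with the largest SD; the cause was not tested.

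Among the 7 genes all 18 reversals concerned Pklr. With Fasn r was 0.0194 with scaled arrays, 0.0634 with no blocks, 0.0659 with Eif2s3y blocks only, 0.179 with the first principal component as a covariate (adjusted p = 0.0166), 0.0600 up to number 212 and 0.187 with Eif2s3y below -0.8. With Thrsp it was 0.000992 without the widest arrays, 0.00273, 0.00172, 0.0711 above 212, 0.00819 below -0.8 and 0.0628 with the smooth trend of mouse number. With Scd1 it was 0.0764, 0.0788 and 0.187, with Elovl6 0.00131 and 0.125, and with Srebf1 -0.0284. With Eif2s3y above -0.8 only, Pklr was negative with Fasn, Scd1 and Elovl6 (r = -0.221, -0.285 and -0.299, adjusted p = 0.0162, 0.00208 and 0.00119), and with Acly it passed at 0.165, 0.164 and 0.180 with no blocks, Eif2s3y blocks only and the component.

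The r of Fasn with Abcg5 and Abcg8 was 0.0250 and 0.0809 with the principal component. With Usp2, near 0 over all mice, it was -0.0359 with scaled arrays, -0.0416 without the widest arrays, -0.132 with no blocks, -0.130 with Eif2s3y blocks only, -0.0270 up to 212, -0.0782 above -0.8 and -0.0377 without the 3 mice. With Dgat2 it was 0.00815 by ranks, 0.150 with the component, 0.142 above 212, 0.198 below -0.8 and 0.0662 with the trend.

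Each gene has 1 named probe, so a mean over its named probes changes nothing. No paired analysis was possible because all mice form 1 group. The number of mice limits the precision.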
